A study of Caenorhabditis elegans with 34 samples.

Results

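The comparison between day 7 and day 6 of life was taken from a time series of whole Caenorhabditis elegans populations, and it rests on 6 of 34 samples, 3 of day 7 and 3 of day 6. The members were chosen by the day in the sample labels and not by any measured value. Every population, on both days, carried the temperature-sensitive spe-9(hc88) mutation and was kept at 25°C, where sperm do not fertilize oocytes, which was meant to keep progeny out of the aging populations. Animals were synchronized by hypochlorite treatment and fed E. coli OP50, day 0 was the first exposure to food, and 1 plate was harvested every 24 h in each of 3 repeats of the course. Each sample is thus RNA of the whole bodies of 1 pooled population, in which fewer cells of a type and less RNA per cell cannot be told apart, and p-values measure the spread between such populations. The labels do not say which samples of day 6 and day 7 came from the same repeat, and the fit did not pair them. The paper's own model held a term for sequencing batch. No batch is named in the labels, so none was fitted here.

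The adult worm body consists of tissues that no longer divide, among them the intestine, which makes yolk, digestive enzymes and secreted defence proteins, the hypodermis, which makes the collagen cuticle, muscle and neurons, beside a germline that forms oocytes. Mitochondria hold a small genome of their own, whose few genes encode core subunits of the respiratory chain, while the remaining subunits come from nuclear genes. Heat shock proteins are chaperones that bind unfolded proteins, and the inducible ones are nearly silent in unstressed young animals.

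Total counts over worm genes were 23235206, 23506102 and 21831421 in the day 7 samples and 22341743, 19500381 and 22124610 in the day 6 samples, so that both days were sequenced to a similar depth. All 8 markers of the intestine, all 6 of body wall muscle, all 5 of the pharynx, all 8 of neurons and all 8 of the female germline and oocytes were detected, as were 4 of 6 hypodermal markers (all but rol-6 and bli-1) and 6 of 8 sperm markers (all but spe-9 and spe-38). The gene mutated in the strain, spe-9, which encodes a sperm surface protein, was below the detection filter with 4, 4 and 13 counts on day 7 and 6, 10 and 10 counts on day 6. Of the 6 markers of embryos, med-1 and hlh-27 had at most 4 counts in each of the 6 samples and were not detected, while the other 4 were, led by pes-10 with 66 to 112 counts on day 7 and 44 to 184 on day 6. Over genes with at least 5 CPM (counts scaled to library size with TMM factors, the unit of all levels here), the root mean square log2 difference was 0.414 on average between a day 7 and a day 6 sample (range 0.23 to 0.583, 9 pairs), against 0.325 among the day 7 samples and 0.358 among the day 6 samples (3 pairs each). The 3 largest differences between the days, 0.5, 0.566 and 0.583, were those of replicate 2 of day 6. The smallest, 0.23 between replicate 3 of day 7 and replicate 3 of day 6, was below every difference within a day (lowest 0.26).

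No gene passed an adjusted p-value of 0.05 between day 7 and day 6. The test was edgeR's quasi-likelihood test on counts, in 1 fit of the 31 samples of days 2 to 12, with Benjamini-Hochberg adjustment over all 13865 detected genes, of which 0% were called. The smallest adjusted p-value by this test was 0.182, for sre-9, a serpentine receptor gene. At an unadjusted p-value under 0.05 there were 1435 genes (10.3% of those tested), 590 of them higher on day 7 (4.26%) and 845 lower on day 7 (6.09%). This count rested on 2 libraries more than on the others. It was 546 without replicate 2 of day 6 and 805 without replicate 1 of day 7, and 0 genes were called in either case. DESeq2's Wald test on the same counts called 46 genes, 14 higher and 32 lower on day 7. For 9183 genes (66.2%) the 95% interval of the log2 fold change lay within 1 of 0, as it did for 7563 of the 8904 genes with at least 5 CPM (84.9%). The median log2 fold change over all genes was 0.0092, and its quartiles were -0.21 and 0.205.

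Transcripts of the mitochondrial genome were lower on day 7 as a set. All 12 of its genes in the deposited counts were detected, and all 12 had a negative log2 fold change, between -1.12 and -0.66, with a median of -0.92. This set was chosen after its values were seen. All of these genes lie on the same small genome and were measured in the same samples, so they are not independent measurements. For 11 of the 12 the unadjusted p-value was under 0.05 in the lower direction, beside 6.09% of all genes, and for 11 every day 7 sample lay below every day 6 sample, beside 9.17% of all genes. Together these genes took 0.599%, 0.593% and 0.644% of all counts in the day 7 samples, against 0.98%, 1.43% and 0.984% in the day 6 samples. The 3 day 7 samples were close to one another and below the whole range of day 6. COX3, a subunit of cytochrome c oxidase (mitochondrial genome, 5678 to 6449), had 1258, 1399 and 1308 TMM-scaled CPM on day 7 and 2331, 2854 and 1879 on day 6, a log2 fold change of -0.83 ± 0.26 (SE; edgeR, adjusted p = 0.264). ND1, a subunit of NADH dehydrogenase (1763 to 2635), had 309.7, 350 and 311 on day 7 and 510.2, 626 and 425 on day 6, a log2 fold change of -0.69 ± 0.22. ND6, another subunit of the same complex (113 to 549), had 10.7, 11.7 and 9.96 on day 7 and 27.2, 29.3 and 13.7 on day 6, a log2 fold change of -1.12 ± 0.32.

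Of the mitochondrial genes without a symbol in the annotation, WBGene00010964 (7827 to 9428) had the highest CPM, with 1426, 1525 and 1630 CPM on day 7 and 2520, 3870 and 2594 on day 6 (log2 fold change -0.97 ± 0.27, SE). WBGene00000829 (4504 to 5621) had 477, 509 and 569 on day 7 and 982, 1394 and 942 on day 6, a log2 fold change of -1.09 ± 0.26, and it was among the 46 genes called by DESeq2 (adjusted p = 0.0273, against 0.25 by edgeR). In both genes the 3 samples of day 7 stood well apart from those of day 6. The one gene whose samples overlapped, WBGene00010958, was near the floor of detection, at 0.302 to 0.494 CPM on day 7 and 0.362 to 0.998 on day 6. The count of 11 of 12 was the same with each of the 6 samples left out in turn, and the median log2 fold change then lay between -1.03 and -0.70, the value nearest to 0 being that without replicate 2 of day 6. It was -0.82 in a fit that took out a per-sample trend of counts on exon length. Libraries were made from RNA captured with oligo(dT), and whether tailing of mitochondrial transcripts differed between the days was not tested.

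**Figure D1:**
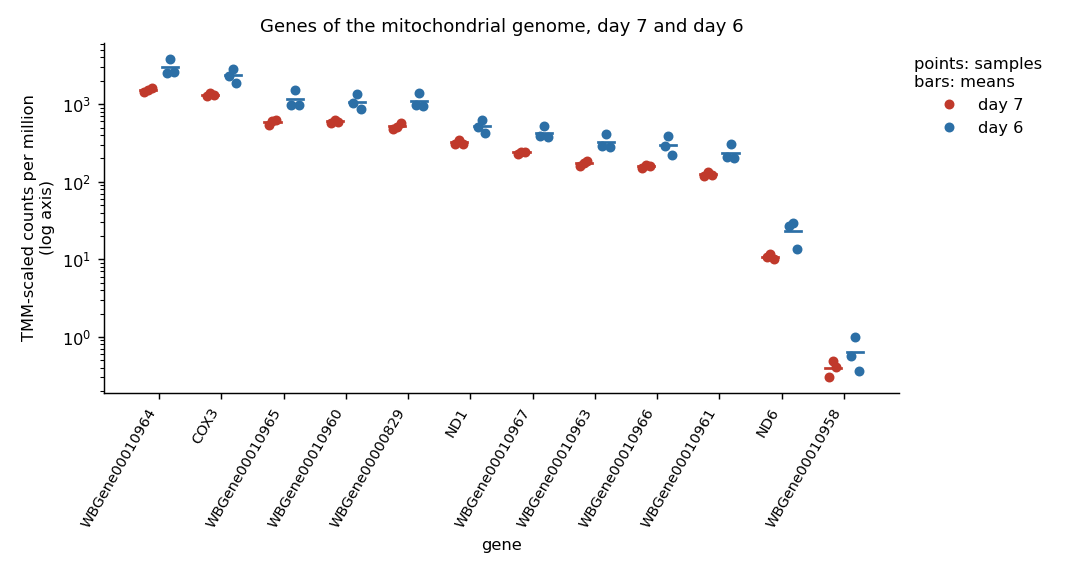
TMM-scaled CPM (log axis) of the 12 genes of the mitochondrial genome in the deposited counts, by sample, with day 7 in red left of day 6 in blue. Points are the 3 samples of each day and bars their means, and in 11 of the 12 genes every day 7 point lies below every day 6 point.

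The nuclear genes of the respiratory chain lay closer to 0. Of 45 detected genes, 37 had a lower mean on day 7, but 5 had an unadjusted p-value under 0.05 (11.1%, beside 6.09% of all genes, all lower) and 2 had day 7 samples that all lay below day 6 (4.44%, beside 9.17% of all genes), while 1, sdha-2, had them all above. Their median log2 fold change was -0.17, and it lay between -0.34 (without replicate 2 of day 7) and -0.095 (without replicate 2 of day 6) with single samples left out, and at -0.10 with the trend on exon length removed. The count of 5 was not stable, being 17 without replicate 2 of day 7, 11 without replicate 3 of day 6, 1 without replicate 1 of day 7, and 0 without replicate 3 of day 7 or replicate 2 of day 6. The member of highest CPM, atp-2, the beta subunit of the ATP synthase, had 1174, 1558 and 1180 CPM on day 7 and 1555, 1465 and 1304 on day 6, and the days overlapped. The gene asg-2, an ATP synthase subunit, had 43.8, 47.5 and 41.9 on day 7 and 51.7, 76.4 and 51.6 on day 6 (log2 fold change -0.43 ± 0.19, SE).

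Inducible heat shock genes were higher on day 7. Of the 18 members (all detected) of a list of hsp-16, hsp-70 and small heat shock genes, 9 had an unadjusted p-value under 0.05 in the higher direction (50%, beside 4.26% of all genes) and none in the lower one, and for 9 every day 7 sample lay above every day 6 sample (50%, beside 9.47% of all genes). For 2 members, hsp-25 and hsp-12.1, every day 7 sample lay below day 6 (11.1%, beside 9.17% of all genes), with log2 fold changes of -0.30 ± 0.18 and -0.89 ± 0.47 (SE). The median log2 fold change of the list was 0.48. hsp-70, a stress-induced cytosolic chaperone (chromosome I, 9320325 to 9322519), had 22.6, 18.1 and 20.8 CPM on day 7 and 10.9, 10.7 and 11.9 on day 6, a log2 fold change of 0.88 ± 0.20 (SE; edgeR, adjusted p = 0.25), and DESeq2 called it with an adjusted p-value of 0.0012. F44E5.4, a further member of the hsp70 family (chromosome II, 11757107 to 11759311), had 416, 292 and 456 on day 7 and 89.6, 167 and 250 on day 6, a log2 fold change of 1.199 ± 0.333. In both genes the days did not overlap.

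The small chaperones of the hsp-16 family on chromosome V were also higher. hsp-16.1 (9087293 to 9087782) had 195, 186 and 184 CPM on day 7 and 87.4, 127 and 131 on day 6, a log2 fold change of 0.71 ± 0.20 (SE). hsp-16.48 had 221, 219.7 and 208 on day 7 and 112, 149 and 157 on day 6 (0.64 ± 0.20). For hsp-16.2 and hsp-16.41 the log2 fold changes were 0.44 ± 0.19 and 0.51 ± 0.22. The 9 genes are fewer independent measurements than their number, since F44E5.4 and F44E5.5, 2 entries named hsp-16.1 and 2 named hsp-16.48 are near-identical copies with almost the same counts and may share reads. The other 9 members did not reach that p-value. sip-1, a small heat shock protein of oocytes and embryos and the member of highest CPM, had 1727, 2236 and 1720 on day 7 and 2561, 2268 and 1786 on day 6, and hsf-1, the transcription factor that drives these genes, overlapped as well, with a log2 fold change of 0.13 ± 0.14. With single samples left out, the list held 7 to 10 genes with an unadjusted p-value under 0.05 and a median between 0.34 and 0.60.

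Some of these genes had been called higher on earlier days. On day 5 against day 4, 9 of the 18 genes were called higher (adjusted p under 0.05 by edgeR, beside 5.45% of all genes, with 2.26% called lower), and on day 6 against day 5, 6 of the 18 were (beside 0.534% of all genes). The second of these steps shares the day 6 samples with the comparison here. The mean level of hsp-70 was 1.93, 5.56, 11.2 and 20.5 CPM on days 4, 5, 6 and 7, and 66.1 on day 12. For hsp-16.2 the step to day 7 was smaller than the step to day 5, by 1.43 ± 0.27 on the log2 scale (edgeR, adjusted p = 0.0033), as it was for hsp-16.41 (1.48 ± 0.32, adjusted p = 0.0113). For hsp-70 the difference between the steps, -0.65 ± 0.30, was not past the threshold (adjusted p = 0.344).

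Genes for secreted digestive and defence proteins lay mostly lower on day 7. Of 34 detected lysozymes and saposin-like genes (46 in the table), which attack bacterial walls and membranes, 15 had an unadjusted p-value under 0.05 and all of these were lower (44.1%, beside 6.09% of all genes), with a median log2 fold change of -0.70 over the list. Of 20 detected gut proteases (27 in the table), 8 were lower by the same measure (40%), with a median of -0.60. Of 95 detected C-type lectins (240 in the table), a large family of sugar-binding secreted proteins, 21 were (22.1%), with a median of -0.38. No member of these 3 lists was higher at that p-value. Replicate 2 of day 6 decided many of them, and without it 7 lysozymes and saposin-like genes, 4 gut proteases and 9 lectins were left, with medians of -0.52, -0.48 and -0.30. Without replicate 1 of day 7 there were 4 proteases and 10 lectins, and without replicate 2 of day 7 there were 3 proteases and 13 lectins. The median of the lectins was -0.62 without replicate 3 of day 7.

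The saposin-like gene spp-2 (chromosome X, 7315995 to 7316818) had 15.1, 11.8 and 18.9 CPM on day 7 and 44.9, 51.2 and 29.2 on day 6, a log2 fold change of -1.45 ± 0.35 (SE), and it was called by DESeq2 (adjusted p = 0.0273) though not by edgeR (0.25). ilys-5, an invertebrate-type lysozyme, had 32.2, 36.7 and 81.0 on day 7 and 100.6, 305 and 162 on day 6 (-1.92 ± 0.63). The member of highest CPM, lys-7, had 989, 868 and 1262 on day 7 and 1346, 1762 and 1546 on day 6, a log2 fold change of -0.58 ± 0.52. The days did not overlap in any of the 3 genes, but samples of one day differed widely in ilys-5. Among the proteases, cpr-9, a cathepsin B-like cysteine protease, had 76.7, 66.3 and 166 on day 7 and 211.8, 432 and 257 on day 6 (-1.54 ± 0.47). The aspartyl protease asp-4 had 98.6, 93.3 and 150.3 on day 7 and 157, 316 and 226 on day 6 (-1.03 ± 0.32). In contrast asp-6, the protease of highest CPM, had 702, 648 and 970 on day 7 and 731, 615 and 593 on day 6, with overlap. The lectin clec-1 had 39.4, 41.5 and 56.9 on day 7 and 104.2, 110.2 and 99.8 on day 6, a log2 fold change of -1.19 ± 0.36 and no overlap. The lectin of highest CPM, clec-87, had 1856, 2228 and 1725 on day 7 and 2465, 2860 and 2035 on day 6, with overlap.

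Intestinal markers outside these lists were checked beside them, together with cpr-1 and asp-1, which are also in the protease list. elt-2, the GATA factor that keeps intestinal identity, had a log2 fold change of 0.20 ± 0.28 (SE), ifb-2, an intermediate filament of the gut, 0.08 ± 0.31, and the microvillar actin act-5 -0.08 ± 0.32. The gut esterase ges-1 and the protease cpr-1 were at -0.52 ± 0.31 and -0.71 ± 0.47, the days overlapping in ges-1 but not in cpr-1. The protease asp-1 was at 0.02 ± 0.46. None of these genes had an unadjusted p-value under 0.05, and the part of intestinal RNA content in the lists above was not tested. The vitellogenins, yolk proteins made in the intestine for oocytes, all had lower means on day 7, with log2 fold changes between -0.94 and -0.13, yet none of the 6 was past an unadjusted p-value of 0.05 and the days overlapped in each. vit-2 had 2855, 2392 and 5618 CPM on day 7 and 6333, 2184 and 3352 on day 6. vit-3 had 208, 199.7 and 1004 on day 7 and 803, 781 and 1123 on day 6. Samples of the same day thus differed by as much as the days did, the median of the 6 ran from -1.30 without replicate 3 of day 7 to -0.22 without replicate 2 of day 7, and the standard errors were between 0.64 and 1.04.

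**Figure D2:**
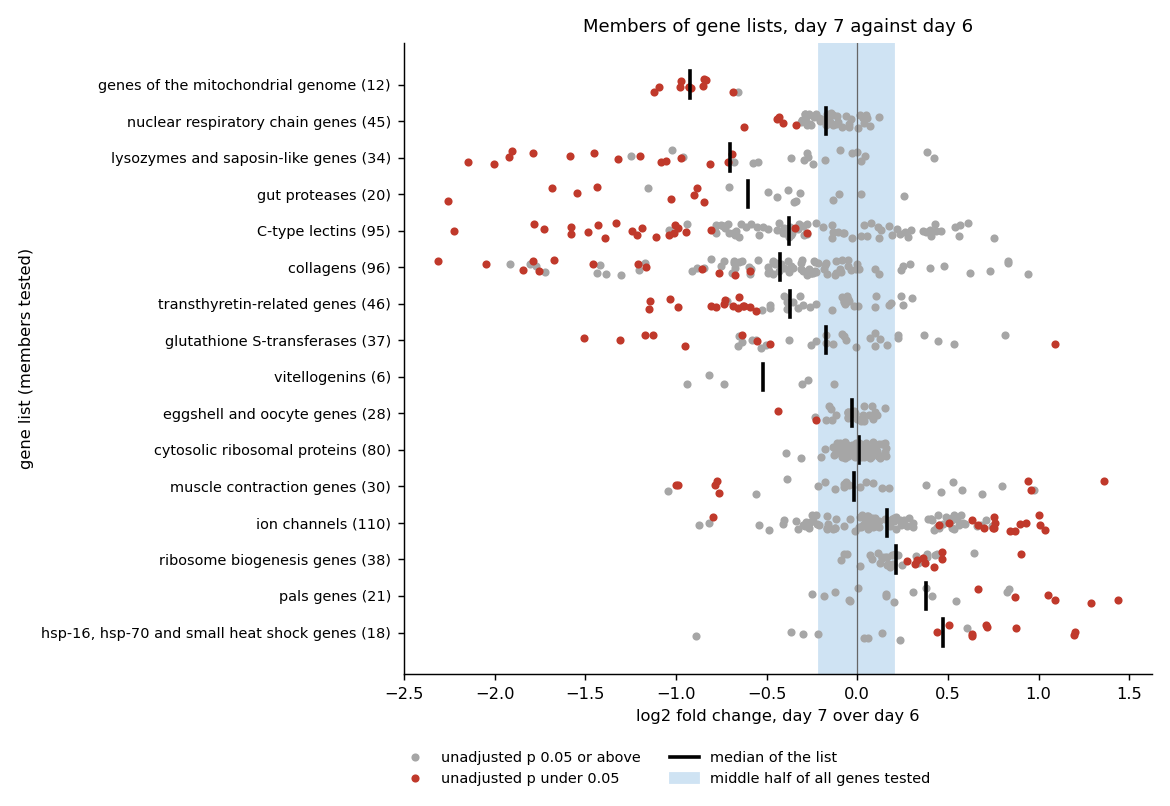
Log2 fold change of day 7 over day 6 for the tested members of 16 gene lists, with members of unadjusted p under 0.05 in red, list medians as black bars and the quartiles of all genes tested as the edges of a blue band from -0.21 to 0.205. The 12 mitochondrial genes lie left of the band, as do most lysozymes and saposin-like genes, while the heat shock list has its median at 0.48.

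Cuticle and transthyretin-related genes were on the lower side as well. Of 96 detected collagens (176 in the table), 83 had a lower mean on day 7 and 13 were lower at an unadjusted p-value under 0.05 (13.5%, beside 6.09% of all genes), with no higher one and a median log2 fold change of -0.43. Without replicate 2 of day 6 there were 4 and the median was -0.25. col-101 (chromosome IV, 325435 to 327020) had the largest fold of the genes named by size, with 24.5, 31.3 and 76.8 CPM on day 7 and 77.7, 407 and 175 on day 6, a log2 fold change of -2.31 ± 0.95 (SE). The highest day 7 sample and the lowest day 6 sample of col-101 nearly met. col-106 had 47.8, 56.3 and 86.2 on day 7 and 127, 380 and 175 on day 6 (-1.84 ± 0.61). The collagen of highest CPM, col-122, had 79.0, 99.5 and 143 on day 7 and 195, 462 and 224 on day 6 (-1.46 ± 0.67). In all 3 collagens replicate 2 of day 6 was the highest sample. Of 46 detected transthyretin-related genes (58 in the table), a nematode family of small secreted proteins, 15 were lower at that p-value (32.6%, beside 6.09% of all genes), while 6 were left without replicate 2 of day 6 and 8 without replicate 1 of day 7. The median of this list was -0.37, but -0.24 without replicate 2 of day 6 and -0.22 with the trend on exon length removed, where 17 of the 46 were on the higher side. ttr-16 had 153, 172 and 179.7 on day 7 and 281, 334 and 253 on day 6, a log2 fold change of -0.78 ± 0.21, and no overlap. The member of highest CPM, ttr-2, had 978, 1112 and 992 on day 7 and 1448, 1557 and 1034 on day 6, with overlap.

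Defence and detoxification genes lay on either side by list. Of 37 detected genes for antimicrobial peptides and infection responses (45 in the table), 9 were lower at an unadjusted p-value under 0.05 (24.3%, beside 6.09% of all genes) with a median of -0.37 (-0.24 with the length trend removed, -0.57 without replicate 3 of day 6), but 1 was left without replicate 2 of day 6, 2 without replicate 2 of day 7 and 5 without replicate 1 of day 7. irg-3, an infection response gene, had 2.19, 2.35 and 6.07 CPM on day 7 and 10.1, 11.5 and 7.65 on day 6. The bZIP factor zip-2, which drives infection responses, was on the higher side with 302, 310.1 and 294 on day 7 and 255, 246 and 268 on day 6 (log2 fold change 0.24 ± 0.17, SE). Of 37 detected glutathione S-transferases (49 in the table), 8 were lower (21.6%, beside 6.09% of all genes) and 1 higher at that p-value (beside 4.26%), 3 in all without replicate 2 of day 6. Their median was -0.18, between -0.38 (without replicate 1 of day 7) and -0.099 (without replicate 2 of day 6) with single samples left out, and -0.053 with the length trend removed. The member of highest CPM, gst-1, overlapped between the days. The pals genes, a family induced by intracellular infection and proteotoxic stress, were mostly on the higher side. Of 21 detected members (38 in the table), 6 were higher at an unadjusted p-value under 0.05 (28.6%, beside 4.26% of all genes) and none lower, with a median of 0.38, though 2 were left without replicate 1 of day 7. pals-33 had 7.18, 4.65 and 4.35 on day 7 and 2.80, 1.66 and 3.10 on day 6, a log2 fold change of 1.09 ± 0.36. The member of highest CPM, pals-4, had 12.9, 9.43 and 6.19 on day 7 and 6.56, 6.22 and 5.24 on day 6, with overlap.

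**Figure D3:**
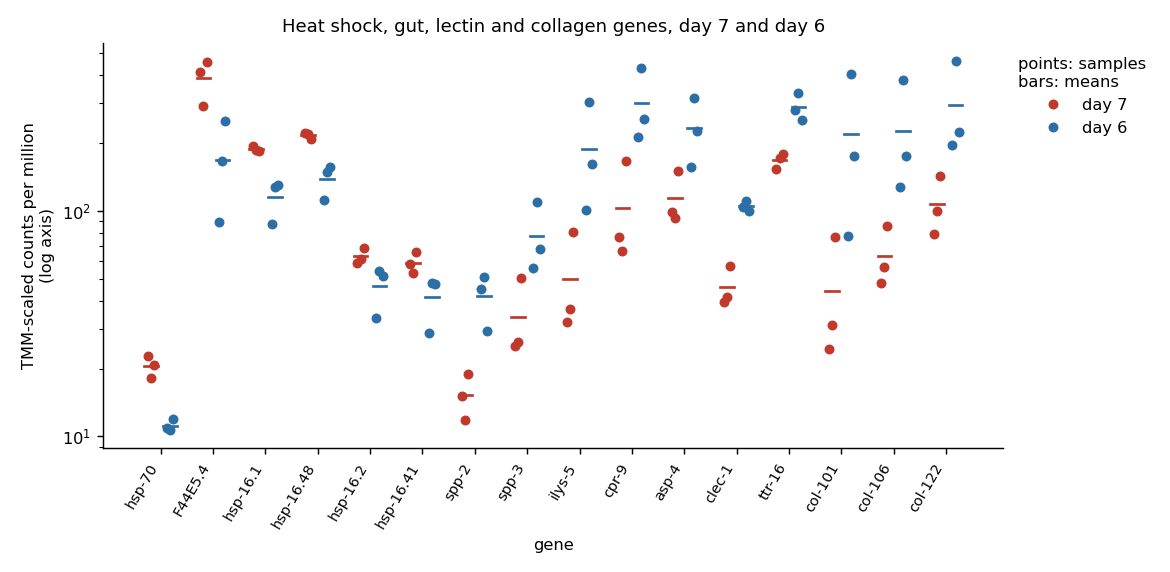
TMM-scaled CPM (log axis) of 16 genes by sample, with day 7 in red left of day 6 in blue, points for samples and bars for means. The 6 chaperone genes at the left are higher on day 7, with hsp-70 at 18.1 to 22.6 against 10.7 to 11.9, and the 10 others are lower on day 7, with replicate 2 of day 6 the highest of the 6 samples in each of these 10.

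Ribosome biogenesis genes lay slightly on the higher side, and the median of ribosomal proteins lay near 0, though it moved with single samples and with length. Of 38 detected ribosome biogenesis genes, 35 had a higher mean on day 7, and 9 had an unadjusted p-value under 0.05, all higher (23.7%, beside 4.26% of all genes), with a median log2 fold change of 0.22. Without replicate 2 of day 6, or without replicate 1 of day 7, 5 were left. ngp-1, a nucleolar GTPase, had 209.96, 177 and 211.7 CPM on day 7 and 141, 122.6 and 169 on day 6 (0.47 ± 0.13, SE). lpd-7, the worm counterpart of the ribosome assembly factor pescadillo, had 418, 430 and 426 on day 7 and 341, 299 and 353 on day 6 (0.36 ± 0.12). Both genes had no overlap between the days, nor did the member of highest CPM, nucl-1. Of 80 detected cytosolic ribosomal proteins, none had an unadjusted p-value under 0.05 and the median was 0.0079, with rpl-3, the one of highest CPM, at 1955, 2870 and 2092 on day 7 and 2473, 2359 and 1999 on day 6. The median of the ribosomal proteins was -0.195 without replicate 2 of day 7 and 0.0995 without replicate 1 of day 7. With the trend on exon length removed it was 0.139, beside 0.176 for the ribosome biogenesis genes.

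Among germline lists, the P granule and meiosis genes lay slightly on the higher side. Of 28 eggshell and oocyte genes, 2 were lower at an unadjusted p-value under 0.05 (7.14%, beside 6.09% of all genes), with a median of -0.027, and 0 were left without replicate 1 of day 7, replicate 3 of day 7 or replicate 2 of day 6. pos-1, a maternal RNA-binding protein, had 1046, 1064 and 1067 CPM on day 7 and 1241, 1271 and 1207 on day 6, a log2 fold change of -0.23 ± 0.10 (SE) with no overlap. Of 24 P granule and germline RNA genes 19 had a higher mean on day 7, none was past that p-value, and the median was 0.16 (0.045 without replicate 2 of day 6 and 0.0053 with the trend on exon length removed). Of 22 meiosis genes 19 had a higher mean, 3 were higher at that p-value (13.6%, beside 4.26% of all genes), and 5 had all day 7 samples above day 6 (22.7%, beside 9.47% of all genes). Their median was 0.13 (0.053 without replicate 2 of day 6 and 0.078 with the length trend removed). syp-4, a protein of the synaptonemal complex that joins paired chromosomes, had 128, 105 and 130.1 on day 7 and 98.1, 63.04 and 99.0 on day 6. Without replicate 2 of day 6, the lowest sample of syp-4, 0 meiosis genes were left at that p-value, and 1 was left without replicate 3 of day 7. The members of highest CPM in these lists, cpg-2, wago-1 and plk-2, overlapped between the days.

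Muscle genes lay on both sides, and channel genes mostly on the higher side. Among 30 muscle contraction genes, 3 were higher (10%, beside 4.26% of all genes) and 5 lower (16.7%, beside 6.09%) at an unadjusted p-value under 0.05, and the median was -0.015. Without replicate 2 of day 6, 1 was left in all, and 5 without replicate 1 of day 7. The titin gene ttn-1, whose exons add up to 56044 bases, had 11.1, 9.43 and 7.59 CPM on day 7 and 5.03, 2.19 and 3.70 on day 6 (log2 fold change 1.36 ± 0.51, SE). unc-89, which encodes the obscurin of the sarcomere (25942 bases), had 27.9, 23.7 and 24.8 on day 7 and 18.7, 7.13 and 13.5 on day 6 (0.96 ± 0.44). In contrast the troponin I gene unc-27 (933 bases) had 34.1, 44.0 and 44.2 on day 7 and 77.5, 98.6 and 68.7 on day 6 (-1.001 ± 0.308). Of 110 detected ion channel genes (160 in the table), 16 were higher (14.5%, beside 4.26% of all genes) and 1 lower (0.909%, beside 6.09%), with a median of 0.16 (0.081 without replicate 1 of day 6), and 7 were left in all without replicate 2 of day 6, 8 without replicate 1 of day 7 and 11 without replicate 3 of day 7. With the length trend removed 11 were left in all and the median was 0.126. By direction, 67 channel genes were then on the higher and 43 on the lower side, against 78 and 32 before. egl-19, the L-type calcium channel of muscle (6465 bases), had 10.7, 11.2 and 10.3 on day 7 and 4.20, 4.18 and 7.25 on day 6 (1.04 ± 0.34). Exon length differed between genes higher and lower on day 7, which was not examined with single samples left out. Replicate 2 of day 6 was the lowest sample of ttn-1 and unc-89 and the highest of unc-27. The median exon length was 1784 bases among the 590 genes higher on day 7 at an unadjusted p-value under 0.05, 977 among the 845 lower ones and 1371 among all genes. With each sample's trend on length removed there were 659 higher and 881 lower genes, of which 472 and 706 were among those without this step. Of 135 genes followed through the alternatives, 133 kept their direction with this step. Many of them were chosen for a large change or a small p-value in these same data, so a change of sign was unlikely from the start. Of the list medians, 8 moved with this step by more than the spread between replicate samples (SD), and 47 by less.

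The genes named by size were chosen after no gene passed the adjusted threshold, so the rule was applied to the 753 genes with an unadjusted p-value under 0.05, at least 5 CPM and no overlap, 295 higher and 458 lower on day 7. Beside F44E5.4 and its copy, ttn-1 and the matrix protein gene him-4 (hemicentin), the most positive were tag-241 with 10.8, 6.01 and 6.93 CPM on day 7 and 3.81, 2.09 and 2.698 on day 6, C54F6.15 with 30.04, 37.1 and 21.4 on day 7 and 14.4, 8.46 and 9.87 on day 6, tag-278, the pseudogene WBGene00012573, and K09F6.9 and K09F6.6, which lie near each other on chromosome II (2280870 to 2282699 and 2276742 to 2279305). Their log2 fold changes lay between 1.15 and 1.46. The most negative, beside col-101, col-106, col-143 and ilys-5, were D1086.3, F13H8.3 and 4 entries for the pud-1 and pud-2 genes, which are known for higher levels in daf-2 insulin receptor mutants. The pud genes are near-identical copies on chromosome V and may share reads. One of the 2 entries named pud-2.2 had 55.2, 39.3 and 141.8 CPM on day 7 and 147, 497 and 274 on day 6, a log2 fold change of -1.96 ± 0.76 (SE). D1086.3 had 2.80, 1.56 and 3.57 on day 7 and 8.97, 12.4 and 10.4 on day 6 (-1.999 ± 0.448), and it was among the genes called by DESeq2 (adjusted p = 0.0158).

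The step to day 7 was then set against 3 other steps of 1 day, in the same fit, to ask whether it differed from them. Against the step from day 5 to day 6 and against the step from day 7 to day 8, each of which shares a day with it, no gene was called (0% for either direction). At an unadjusted p-value under 0.05 there were 270 and 287 of 13865 genes in these 2 comparisons, and DESeq2 called none in either. The shared day enters each of these differences with a weight of 2, and day 8 had 2 samples. They are therefore less precise than a difference of steps without a shared day, and the lack of calls does not show equal steps. The step from day 4 to day 5 shares no sample with the step to day 7. Against it, 281 genes were called by edgeR (adjusted p under 0.05). Of these, 271 had a more negative step to day 7 (1.95% of all genes) and 10 a more positive one (0.0721%). Of the 271, 268 were called higher on day 5 than on day 4 (beside 5.45% of all genes), with a median log2 fold change of 1.91 over the 271, while the median was 0.37 from day 5 to day 6 and -0.24 from day 6 to day 7. The step to day 5 and the step to day 7 both enter the difference that selected these genes, so their directions here are set in part by that selection.

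Cuticle genes were among the 271. dsl-3, a member of the Notch ligand family, had the smallest p-value of the difference, with 17.1, 17.1 and 15.99 CPM on day 7 and 23.7, 27.03 and 21.3 on day 6. Its step to day 7 was -0.52 ± 0.17 (SE) and its step to day 5 was 2.29 ± 0.19, a difference of -2.81 ± 0.25 (edgeR, adjusted p = 6.89e-07). ces-2, a bZIP transcription factor, differed by -3.26 ± 0.35 (adjusted p = 1.32e-05). cutl-16, a cuticlin-like gene, had 27.4, 14.8 and 20.3 on day 7 and 29.9, 45.5 and 35.6 on day 6 and differed by -3.80 ± 0.49, while dpy-14, a cuticle collagen gene, had 137, 117 and 124 on day 7 and 136, 127 and 129.7 on day 6 and differed by -2.91 ± 0.38 (adjusted p = 8.68e-05 for both). The days overlapped in dpy-14, whereas all 3 day 7 samples of cutl-16 lay below day 6. By list, 7 of 26 detected cuticlins (26.9%), 10 of 96 collagens (10.4%), 6 of 61 homeobox genes (9.84%) and 19 of 243 F-box genes (7.82%) were among the 271, beside 1.95% of all genes. In these lists 11, 12, 15 and 43 genes had been called higher on day 5 than on day 4 (beside 5.45% of all genes). Called lower there were 0, 0, 1 and 4 (beside 2.26%). That step enters the difference that selected the 271. The median log2 fold change of these lists between day 6 and day 7 was -0.21 for cuticlins, -0.053 for homeobox genes and -0.16 for F-box genes. Without replicate 2 of day 6 it was -0.10 for cuticlins and -0.021 for F-box genes, which were at -0.30 without replicate 1 of day 6. For homeobox genes the median ran from -0.118 without replicate 1 of day 6 to 0.00642 without replicate 2 of day 7. The count of 281 was 177 without replicate 2 of day 6 and 181 without replicate 2 of day 7, and it was 152 without replicate 1 and 530 without replicate 3 of day 4. The 10 positive differences were fewer or more with these samples left out, at 0 without replicate 2 of day 6 and 97 without replicate 3 of day 4.

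**Figure D4:**
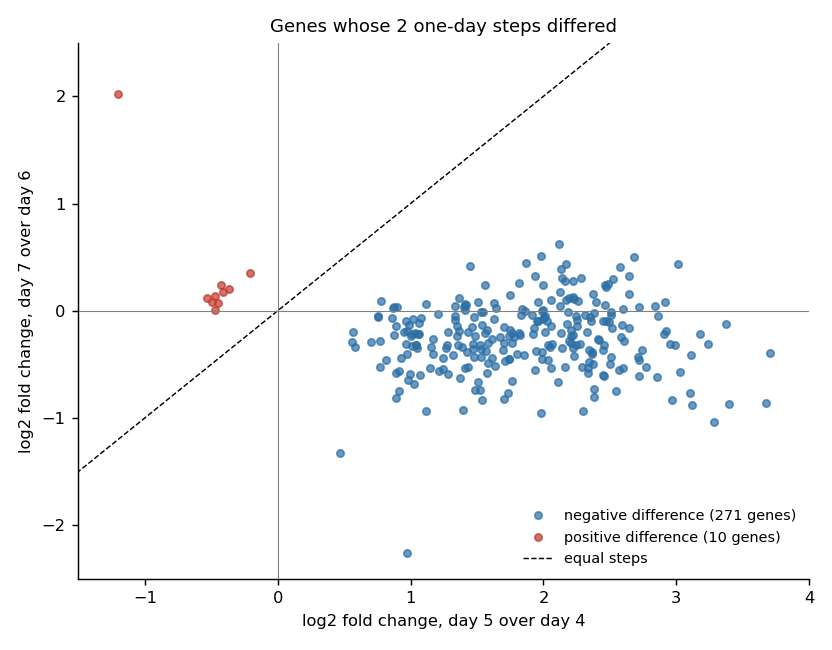
Log2 fold change of day 7 over day 6 (y axis) against that of day 5 over day 4 (x axis) for the 281 genes whose steps differed, with 271 negative differences in blue, 10 positive ones in red and a dashed line of equal steps. The blue points lie between 0.47 and 3.70 on the x axis and mostly just below 0 on the y axis, with a median of -0.24.

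The days around this step set it in the whole course. The share of counts from the mitochondrial genome was 1.89% ± 0.93 (SD, n = 3) on day 4, 1.57% ± 0.55 on day 5, 1.13% ± 0.26 on day 6, 0.612% ± 0.0278 on day 7, 0.557% ± 0.199 (n = 2) on day 8 and 0.252% ± 0.049 (n = 2) on day 12. The mean of cpr-9 was 529, 300.1 and 103 CPM on days 5, 6 and 7, and 133 on day 8. F44E5.4 had means of 41.2, 169, 388 and 673 on days 5, 6, 7 and 8. For cpr-9, F44E5.4 and the 12 mitochondrial genes the step to day 7 did not pass the test of a difference from any of the 3 other steps.

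**Figure D5:**
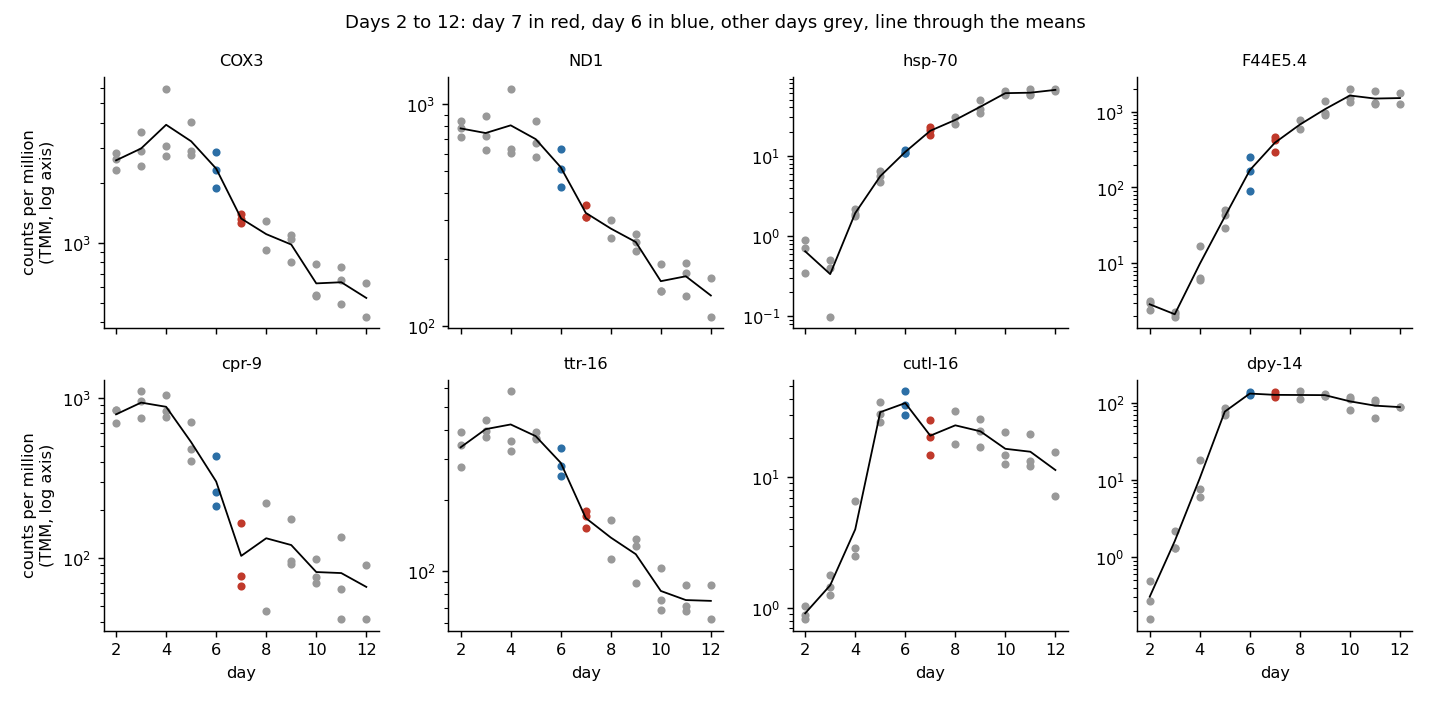
TMM-scaled CPM (log axis, with its own range in each panel) of 8 genes against day, from day 2 to day 12, with day 7 in red, day 6 in blue, other days in grey and a line through the means. COX3, ND1, cpr-9 and ttr-16 lie lower on day 7 than on day 6, and hsp-70 and F44E5.4 lie higher. cutl-16 and dpy-14 rise steeply from day 4 to day 5, and dpy-14 rises further to day 6.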

How the data were processed

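RNA of whole populations was enriched with oligo(dT) beads and rRNA was depleted before fragmentation. The authors deposited raw counts per gene, made with STAR 2.7.3a and featureCounts on WBcel235 per the submitters' processing notes. The label's day set each sample's group. Totals over days 2 to 12 lay between 19202058 and 27587987. An entry for a transgene was left out. A gene was kept where 75% of these samples held 5 or more counts, which left 13865.

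Counts were scaled by TMM and tested with edgeR 4.0.16 (R 4.3.3) in a quasi-likelihood fit of 31 samples with day as a factor of 11 levels, two-sided, with Benjamini-Hochberg adjustment. DESeq2 1.42.0, other scalings, filters, sample sets, a replicate block and a correction for length were alternatives. The test was also run on counts simulated without a deviating sample or a trend on length between the days, and no statement here rests on its outcome. Symbols came from a gene table, and positions and exon lengths from Ensembl release 115 on the same build. CPM grow with gene length, and the member of highest CPM in a list need not have the most transcripts.

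Members and lists were chosen with earlier results of these data known, and the mitochondrial list after its values were seen. Named genes were to be the 10 largest called changes in each direction and, in each list without a called gene, the member of highest level, beside the vitellogenins and spe-9. As no gene was called, genes of small unadjusted p-value in each list and the 10 largest changes by the relaxed rule were named, chosen after the values were seen. Lists were described by counts and medians without a test.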

Additional observations from a re-analysis of the deposited data

Results flagged for a closer look

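The step from day 6 to day 7 differed from the step from day 4 to day 5 in 281 genes, by edgeR's test of the difference between the steps itself (adjusted p under 0.05). Of these, 271 had a more negative step to day 7 and 10 a more positive one. The number of positive ones was 0 without replicate 2 of day 6 and at an adjusted p-value under 0.01, 1 with library size alone and 97 without replicate 3 of day 4. The positive ones included mppb-1, pdhk-2 and zim-3, whose log2 fold changes between day 6 and day 7 were 0.07 ± 0.08, 0.0095 ± 0.079 and 0.24 ± 0.11 (SE). Of the 10, 8 had been called lower on day 5 than on day 4 (beside 2.26% of all genes), a step that enters the difference that selected them.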

How the results depend on the processing

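The count of genes called between day 7 and day 6 was 0 in edgeR under every alternative (other scalings and filters, the 6 samples alone, all 34 samples, single samples left out, a replicate block and the length correction), with 546 to 1695 genes at an unadjusted p-value under 0.05 when single samples were left out. DESeq2 called 46. The count of 281 genes whose step differed from that of days 4 to 5 was 498 by DESeq2 (85 positive and 413 negative), 128 at an adjusted p-value under 0.01, and 177 to 292 with single samples of days 6 and 7 left out. With samples of days 4 and 5 left out it was 152 to 530, and with the length correction 357, both chosen after seeing the data. With the replicate number as a block it was 286, of which 265 were among the 281. Same-numbered samples of the days correlated by 0.136, 0.0276 and 0.388 in their deviations. Not every pair was over 0.1 and the labels do not say what the numbers mark, so the fit without the block was kept. With the block in a fit of the 6 samples of days 6 and 7 alone, 2504 genes had an unadjusted p-value under 0.05 by edgeR. None was called there, the smallest adjusted p-value being 0.108. Log2 fold changes near 0 changed sign. Without the filter rpl-3 was at -0.00652 and pdhk-2 at -0.0167, with all 34 samples pdhk-2 was at -0.00186, and with the length correction wago-1 was at -0.0473 and dpy-14 at 0.0124. With single samples left out, rpl-3 ran from -0.17 to 0.124, vit-2 from -0.592 to 0.376, vit-5 from -0.781 to 0.13, vit-6 from -0.843 to 0.181, wago-1 from -0.0172 to 0.183, F20C5.6 from -0.132 to 0.191, dpy-14 from -0.119 to 0.000514 and pdhk-2 from -0.0231 to 0.0479. The cause was not tested. Over 55 lists and 16 alternatives, list medians moved by more than the replicate SD in 53 cases and by less in 827. That SD was computed from the same samples, which limits how often leaving a sample out can exceed it. The 827 cases therefore do not show that a median was stable, and ranges for single lists are given above.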

Other observations

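By chromosome, genes on X stood on the lower side on day 7. Of 1999 detected genes on X, 209 were lower (10.5%, beside 6.09% of all genes) and 79 higher (3.95%, beside 4.26%) at an unadjusted p-value under 0.05 (edgeR), and the median log2 fold change was -0.057. On the 5 autosomes the share of lower genes was between 3.93% on chromosome I and 6.79% on chromosome V. These shares were not computed with single samples left out or with the length trend removed. Over all genes, the count at that p-value fell to 546 without replicate 2 of day 6.

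Among the markers of cell types, the sperm gene fer-1, a dysferlin needed for sperm activation, had 91, 57 and 68 counts on day 7 and 33, 22 and 22 counts on day 6, while gsp-3, gsp-4 and msp-142 overlapped between the days. The pan-neuronal marker unc-119 had 372, 442 and 356 counts on day 7 and 478, 573 and 491 counts on day 6, a log2 fold change of -0.53, and unc-25 was at -0.46 with every day 7 sample below day 6 in CPM. The other 6 neuronal markers overlapped, with snb-1 at -0.13, ric-4 at 0.0028, tph-1 at 0.04, rab-3 at 0.05, egl-21 at 0.11 and unc-17 at 0.74. Of the 46 genes called by DESeq2, rrf-2, an RNA-dependent RNA polymerase gene, was higher (log2 fold change 0.84, adjusted p = 0.0273), as was cul-6, a cullin of ubiquitin ligases (0.98, adjusted p = 0.04). ule-5 was lower (-0.77, adjusted p = 0.0307), as was gly-8, a glycosyltransferase gene (-1.04, adjusted p = 0.0273).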
